A study of Mus musculus with 154 samples.

Results

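The nuclear-encoded genes of the mitochondrial respiratory chain and ATP synthase were examined in mouse liver. Members were all protein-coding genes whose symbol starts with Nduf, Sdh, Uqcr, Atp5 or Cox4 to Cox8. This rule gave 89 of the 13289 genes in the count table: 44 genes of complex I, 8 of complex II, 8 of complex III, 11 of complex IV and 16 of complex V, plus Atp5s and Cox7a2l, which were placed in no complex. Ndufa4 was counted with complex IV, of which its product is a subunit. Further genes of the rule, among them the muscle isoform genes Cox6a2, Cox7a1 and Cox8b, were not analysed here.

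The mice were fasted males aged 5 weeks in 24 strains. The control was C57BL/6J (B6, 20 mice), and the other strains were made from chromosome substitution strains (CSS), which are B6 mice that carry a chromosome of strain A/J. The 8 single CSSs (63 mice; A3, A4, A5, A6, A8, A10, A14 and A17, 7 or 8 mice each) were heterozygous for 1 A/J chromosome, named by its number. The 15 double CSSs (71 mice, 3 to 6 per strain, such as A14:A8) were heterozygous for 2. A/J chromosomes 3, 6, 14 and 17 came from the dam and 4, 5, 8 and 10 from the sire, so that a substitution and the parent that gave it cannot be told apart. One A14:A4 library, E733, went against its label of male, with 4 Y-linked genes summing to 2.94 CPM against 257 to 314.7 in B6, and results that rest on it are given without it. Libraries held 4638701 to 30465477 counts, with a median of 16116424. Members were read at a mean of 2.61 (Ndufaf5) to 1169 (Atp5b) CPM (counts scaled to the same library total) in B6, and CPM is used throughout as the level of a gene.

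The respiratory chain passes electrons from NADH (complex I) and succinate (complex II) through complex III to oxygen at complex IV, and the proton gradient it builds drives ATP synthase (complex V). Complexes I and III have core subunits, usually large, and accessory subunits, usually small. Assembly factors build the complexes without staying in them. Hepatocytes are rich in mitochondria and draw on them for gluconeogenesis and fatty acid oxidation in the fasted state.

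Promoter letters are shown for 4 members that moved in opposite directions in strain A8 against B6: Atp5b and Ndufs3, which fell, and Atp5k and Sdhaf3, which rose. The RefSeq promoter table (GRCm38.p6, 250 bases before to 50 after each start) held 74 of the 89 members. The windows were searched on both strands for the letters GCGCATGCG (NRF1), CCGGAAG (GABPA), AAGATGGCG (YY1), TCAAGGTCA (ESRRA) and GGGGCGGGG (SP1), each counted on its own where motifs overlapped. The 250 bases before the start are printed 5′ to 3′ with motif matches in capitals, for Atp5b (chr10:128083057-128083306, plus strand), Ndufs3 (chr2:90904722-90904971, minus strand), Atp5k (chr5:108434400-108434649, minus strand) and Sdhaf3 (chr6:6955768-6956017, plus strand).
Atp5b: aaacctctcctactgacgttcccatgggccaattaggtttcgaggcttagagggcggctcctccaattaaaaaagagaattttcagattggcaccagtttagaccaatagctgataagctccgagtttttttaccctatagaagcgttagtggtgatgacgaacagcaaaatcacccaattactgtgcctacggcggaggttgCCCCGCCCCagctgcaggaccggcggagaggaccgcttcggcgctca
Ndufs3: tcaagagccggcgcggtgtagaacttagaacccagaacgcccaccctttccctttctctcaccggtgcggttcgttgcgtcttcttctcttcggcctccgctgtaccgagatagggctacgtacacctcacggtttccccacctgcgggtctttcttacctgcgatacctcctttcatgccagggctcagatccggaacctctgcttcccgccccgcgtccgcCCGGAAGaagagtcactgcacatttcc
Atp5k: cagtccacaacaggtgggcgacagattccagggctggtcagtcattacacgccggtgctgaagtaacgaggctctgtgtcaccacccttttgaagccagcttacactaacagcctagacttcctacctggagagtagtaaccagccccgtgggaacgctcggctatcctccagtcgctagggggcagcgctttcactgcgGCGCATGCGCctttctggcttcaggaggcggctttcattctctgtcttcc
Sdhaf3: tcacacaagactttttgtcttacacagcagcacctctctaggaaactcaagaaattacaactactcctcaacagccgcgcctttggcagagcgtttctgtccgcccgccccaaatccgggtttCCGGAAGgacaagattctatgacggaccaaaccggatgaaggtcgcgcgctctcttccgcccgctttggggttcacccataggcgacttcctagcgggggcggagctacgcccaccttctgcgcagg
The capitals are the SP1 letters in Atp5b, 47 to 39 bases before the start, the GABPA letters in Ndufs3 (27 to 21 bases) and in Sdhaf3 (127 to 121 bases), and the NRF1 letters in Atp5k (50 to 41 bases). The GABPA letters thus occurred before a member that fell and before one that rose. The whole searched window of Atp5k, which rose, also held the GABPA letters, though not within the bases printed.

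Over the members with a promoter, the NRF1 letters were in 10 of 74 (13.5%), against 4.08% of the 9773 genes of the count table that had a promoter and 1.95% of all 27025 genes of the promoter table. The GABPA letters were in 21 members (28.4%, against 19.9% and 9.93%) and the YY1 letters in 8 (10.8%, against 3.62% and 1.64%). The ESRRA letters were in 2 (2.7%, against 0.317% of the genes of the count table) and the SP1 letters in 10 (13.5%, against 24.2% of the genes of the count table and 12.9% of all). Among members that rose in A8, 8 of 27 held the GABPA letters and 3 of 27 the NRF1 letters, and among those that fell, 2 of 20 and 3 of 20. Among members not called in A8, 11 of 27 held the GABPA letters and 4 of 27 the NRF1 letters. These are counts of letters and were not tested.

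Per kilobase of transcript, the members with the highest level in B6 were Atp5b (610 CPM per kb), the catalytic beta subunit of ATP synthase, and Atp5a1 (389), the alpha subunit. Ndufa4 (365.6), Cox4i1 (351) and Atp5g3 (346), which encodes the membrane rotor ring subunit c, came next. Assembly factors lay at the other end, at 1.88 CPM per kb for Sdhaf3 and 2.23 for Ndufaf5. The mean CPM of a member in its highest strain was 1.2 (Sdhaf2) to 1.62 (Ndufa4) times that in its lowest, with a median of 1.42. The highest strain was A17 for 67 of the 89 members, and A17 holds mice E124 and E125, which stood apart. The lowest strain was A6:A8 for 38 members, A8 for 24 and A10 for 14.

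Strains differed in 64 of 89 members by a joint test of all strain terms, and 50 of 89 members had an interaction by a joint test of the 15 crosses (edgeR's quasi-likelihood test, p-values adjusted by Benjamini-Hochberg over all genes, with an adjusted p below 0.05 termed called). Over all genes, 51.4% and 27.5% were called in these tests. By complex, strain differences were called in 28 of 44 genes of complex I, 5 of 8 of complex II, 7 of 8 of complex III, 10 of 11 of complex IV and 14 of 16 of complex V. The smallest adjusted p in the joint strain test were those of Ndufa12 (5.05e-11), Atp5a1 (6.27e-11) and Atp5b (2.18e-09). In the joint interaction test they were those of Atp5a1 (1.4e-08), Ndufa4 (4.14e-08) and Cox6c (6.43e-08). Of the 89 members, 9 were called in no substitution and no cross: Ndufb7, Ndufaf1, Ndufaf3, Ndufaf5, Sdhb, Sdhaf2, Cox4i1, Atp5c1 and Atp5s.

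**Figure D1:**
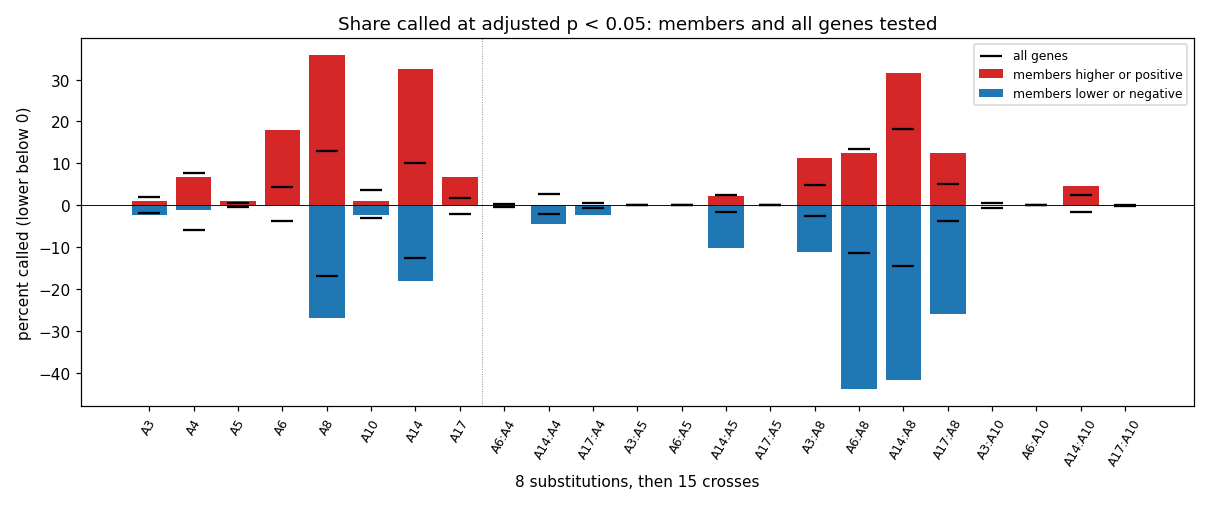
Share of the 89 members called higher or positive (red) and lower or negative (blue, below 0) in each of the 8 substitutions and 15 crosses, in percent; black dashes give the share of all genes tested. The shares of members are largest in A8 and A14 and in the crosses A14:A8, A6:A8 and A17:A8.

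A8 moved the members most. Among the members called, most genes for complex I accessory subunits rose, and most core or F1 genes of complexes I, III and V fell. Of 89 members, 32 rose (13% of all genes rose) and 24 fell (16.8% of all genes fell), and the median of the 89 was 0.03 on the log2 scale, against -0.01 over all genes. Fold changes below are fitted log2 values against B6, adjusted for 5 surrogate variables, with their standard error (SE), and each adjusted p is edgeR's quasi-likelihood p after the Benjamini-Hochberg procedure.

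Complex V showed the split most plainly. Atp5a1 lay at 829 to 1140 CPM in B6 (median 942.5, n = 20) and at 491 to 786 in A8 (median 629, n = 8). All 8 A8 mice were below all 20 B6 mice. Its log2 fold change was -0.43 (SE 0.06, adjusted p 1.16e-09). Atp5b followed at -0.31 (SE 0.04, adjusted p 1.16e-08), with 703 to 987 CPM in A8 (median 852) against 974 to 1279 in B6 (median 1173) and 7 of 8 mice below all B6 mice. Atp5d, which encodes the delta subunit of the central stalk, fell by 0.30 on the log2 scale, again with 8 of 8 mice below B6. Of the 5 genes of the F1 head, 3 fell. The 11 other genes of complex V held 5 that rose and 3 that fell. Atp5j2, which encodes a small membrane subunit, rose by 0.41 (SE 0.08, adjusted p 1.65e-05), from 47.5 to 86.4 CPM in B6 (mean 61.2) to 61.7 to 117.9 in A8 (median 82.9), with overlap between the groups.

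Complex IV moved in both directions. Ndufa4 lay at 174 to 292 CPM in B6 (mean 223 ± 25.8 SD, n = 20) and at 226 to 409 in A8 (median 316, n = 8). Of the 8 A8 mice, 5 lay above all B6 mice and the rest within their range. Its log2 fold change of 0.44 (SE 0.06, adjusted p 3.17e-08) was the largest rise of a member in A8. Cox6c (0.37), Cox7a2 (0.38), Cox7c (0.35) and Cox7b (0.31) also rose. Cox5b (-0.20), Cox5a (-0.12) and Cox6b1 (-0.11) fell. Cox4i1, Cox6a1 and Cox8a were not called.

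In complex I, 5 of 7 core subunit genes fell and 2 rose, while 14 of 29 accessory subunit genes rose and 5 fell. Ndufv1, which binds NADH, lay at 114 to 152 CPM in B6 (mean 130.6 ± 9.96 SD) and at 74.7 to 114 in A8 (median 95.2), and all 8 A8 mice were below all B6 mice. Its log2 fold change was -0.31 (SE 0.05, adjusted p 1.62e-07). Ndufs1, the largest core subunit, fell by 0.24 (SE 0.06, adjusted p 8.75e-04), and 4 of 8 mice were below B6. Ndufs3 and Ndufs7 fell by 0.22 and 0.16, and Ndufs8 (0.13) and Ndufv2 (0.17) rose. Among accessory genes Ndufa10 fell by 0.36 and Ndufa9 by 0.24, and Ndufs4 (0.36), Ndufb11 (0.33), Ndufa2 (0.32) and Ndufa1 (0.28) rose. Ndufs4 lay at 47.3 to 78.9 CPM in B6 and 55.8 to 107 in A8, with 5 of 8 mice above B6. Of the 8 assembly factors, Ndufaf2 and Ndufaf8 rose and Ndufaf7 fell.

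In complex II, Sdha, the flavoprotein that oxidises succinate, fell by 0.27 (SE 0.05, adjusted p 1.08e-05). It lay at 301.5 to 412.5 CPM in B6 and 185 to 313 in A8, with 7 of 8 mice below B6. Sdhc fell by 0.15, and the assembly factors Sdhaf3 (0.41) and Sdhaf4 (0.38) rose. In complex III the core genes Uqcrc1 (-0.31) and Uqcrfs1 (-0.14) fell, and the small Uqcrb (0.26) and Uqcr11 (0.24) rose. All 8 A8 mice were below B6 for Uqcrc1, at 104 to 139 CPM against 144 to 212.

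**Figure D2:**
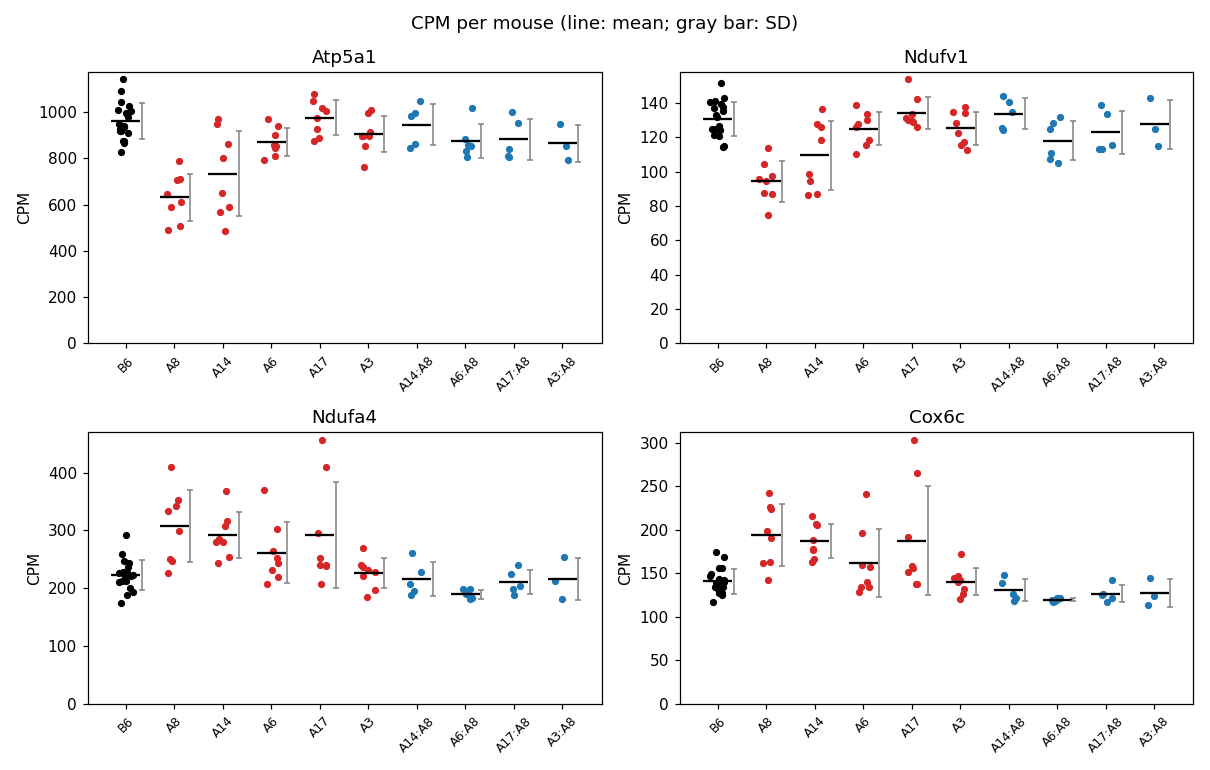
CPM per mouse for Atp5a1, Ndufv1, Ndufa4 and Cox6c in B6 (black), single CSSs (red) and double CSSs (blue); lines are means and gray bars the SD. Atp5a1 and Ndufv1 are low in A8 and Ndufa4 and Cox6c high. The A8 double CSSs lie nearer to B6, with Ndufa4 and Cox6c of A6:A8 toward its low end.

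The members moved by coding length. Of the 20 members with a coding sequence of up to 300 nt, 12 rose and 1 fell in A8, with a median log2 fold change of 0.23. Of the 10 over 1200 nt, none rose and 9 fell, with a median of -0.28. The median coding length was 319.5 nt for members that rose and 805.5 nt for those that fell. Other nuclear protein-coding genes showed the same order in the share that rose and the share that fell: 31.0% rose and 5.35% fell up to 300 nt, and 9.36% rose and 22.4% fell over 1200 nt (7072 genes). The part of transcript length in the result was not tested.

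**Figure D3:**
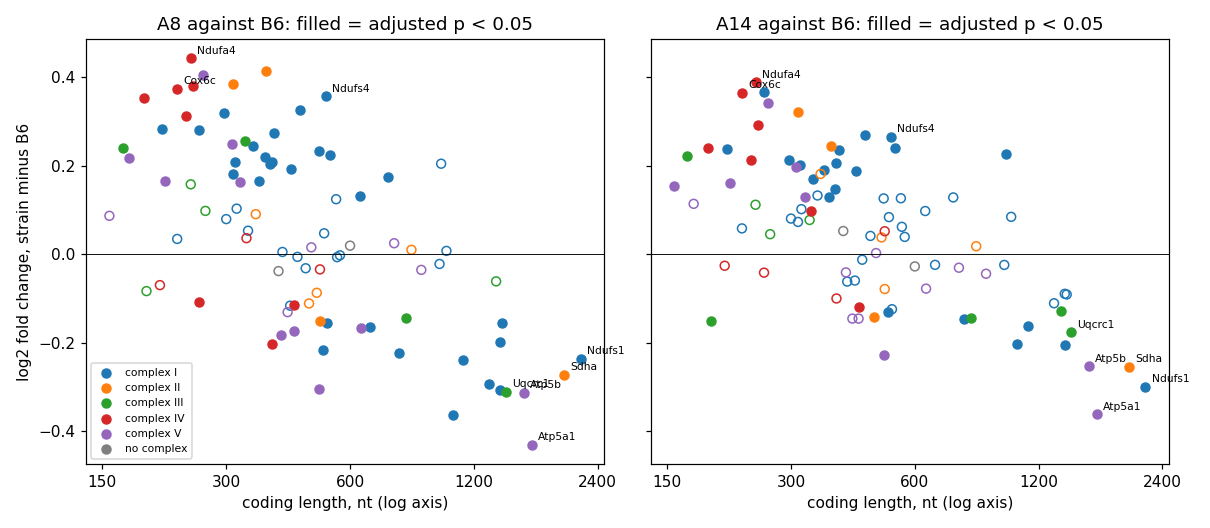
Log2 fold change against B6 (vertical) and coding length in nt (horizontal, log axis) for the 89 members in A8 and A14, coloured by complex; filled points were called. Members called among the shortest lie above 0 except for 1 in each strain, and those called among the longest lie below it.

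Markers of hepatocytes, the main cell type of the liver, moved with the fall. Of 8 hepatocyte marker genes, 7 were lower in A8 and 5 in A14. Their summed level was 103400 to 162900 CPM in B6, 56630 to 115200 in A8 and 62240 to 129700 in A14. Summed markers of other cells overlapped with B6 in A8: Kupffer cells 293 to 626 against 306 to 543 CPM, endothelial cells 381 to 475 against 350 to 436, and stellate cells 416 to 580 against 397 to 645. The muscle marker Myh4 had a median of 0 in B6 and A8. In bulk liver, fewer cells of a type and less RNA per cell cannot be told apart, and the part of these values in the result was not tested.

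A14 gave the same kind of split. Of 89 members, 29 rose (10% of all genes) and 16 fell (12.6%), and the median of the 89 was 0.06 against -0.01. A14 and A8 were compared with the same 20 B6 mice. Atp5a1 lay at 484 to 967 CPM in A14 (median 725) and fell by 0.36 (SE 0.05, adjusted p 9.25e-08), with 5 of 8 mice below all B6 mice and the others within their range. Ndufs1 fell by 0.30, Sdha by 0.25 and Atp5b by 0.25. Ndufa4 rose by 0.39 (SE 0.06, adjusted p 4.36e-07), at 243 to 368 CPM (median 282.5), with 3 of 8 mice above B6. Cox6c rose by 0.37, with 6 of 8 mice above B6, and the assembly factor Ndufaf8 by 0.37 from a low level. All 3 core genes of complex III fell. Of the 20 shortest members 12 rose and 1 fell, and of the 10 longest none rose and 7 fell. Of other nuclear protein-coding genes, 25.7% rose and 2.67% fell up to 300 nt, and 7.2% rose and 17.5% fell over 1200 nt.

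With 10 surrogate variables in place of 5, the members called were 10 higher and 12 lower in A8 and 2 higher and 5 lower in A14. With scaling by library size alone, they were 16 higher and 31 lower in A8 and 13 higher and 21 lower in A14, and without the A17 mice described below they were 42 higher and 15 lower in A8 and 43 higher and 10 lower in A14.

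Genes that work with the members were taken from lists of pathway genes, beside which 13% of all genes rose and 16.8% fell in A8 and 10% and 12.6% in A14. Of 11 mitochondrially encoded subunits in the table, 2 rose and none fell in A8, and 3 rose in A14. mt-Co1, a catalytic subunit of complex IV, rose by 0.32 (SE 0.07, adjusted p 1.28e-04) in A8 and mt-Nd6 by 0.59 (SE 0.16). Of 14 tricarboxylic acid cycle genes, 10 fell and none rose in A8, with a median of -0.32, and 8 fell in A14. Ogdh fell by 0.63 (SE 0.08) and Mdh2 by 0.48 (SE 0.07) in A8. Of 37 further assembly factors, 7 rose and 8 fell in A8, and the largest fall was that of Lrpprc, which stabilises mitochondrial mRNA (-0.46, SE 0.06, adjusted p 2.02e-09). Of 16 regulators of mitochondrial gene expression, 4 fell in A8: Ppargc1a (-0.84), Ppargc1b (-0.48), Twnk (-0.31) and Yy1 (-0.17). Cyc1, which encodes cytochrome c1 of complex III, fell by 0.24. Among 82 cytoplasmic ribosomal protein genes, 7 rose and 11 fell, and among 77 mitochondrial ones, 10 rose and 9 fell.

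The other substitutions moved fewer members in this fit. A6 moved 16 of 89, all of them higher (4.31% of all genes rose and 3.79% fell), with a median of 0.08. The largest rises were those of Sdhaf4 (0.26) and Ndufa13 (0.25, SE 0.05, adjusted p 1.73e-04). Ndufa13 lay at 83.5 to 139 CPM in A6 and 67.8 to 109 in B6, with 2 of 8 mice above B6. The count in A6 was 30 without the A17 mice E124 and E125, 4 with a stricter count filter and 2 with 10 surrogate variables. A17 raised 6 of 89 (1.73% of all genes rose and 1.97% fell), against 56 without surrogate variables and 73 with 5 components within strains. Shares of all genes called under such alternative settings were not computed, in A17 or elsewhere. A4 raised 6 and lowered 1 (7.6% of all genes rose and 5.91% fell; 2 members were called with 10 surrogate variables), led by Sdhaf1 (0.29), Ndufaf7 (-0.23) and Cox7c (0.21). A3 raised Atp5f1 and lowered Uqcr10 and Uqcrfs1 (1.93% rose and 1.75% fell), A10 raised Ndufa12 and lowered Cox5b and Ndufab1 (3.69% and 2.98%; 11 members without surrogate variables and 57 with the components), and A5 raised Cox6a1 (0.452% rose and 0.316% fell).

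**Figure D4:**
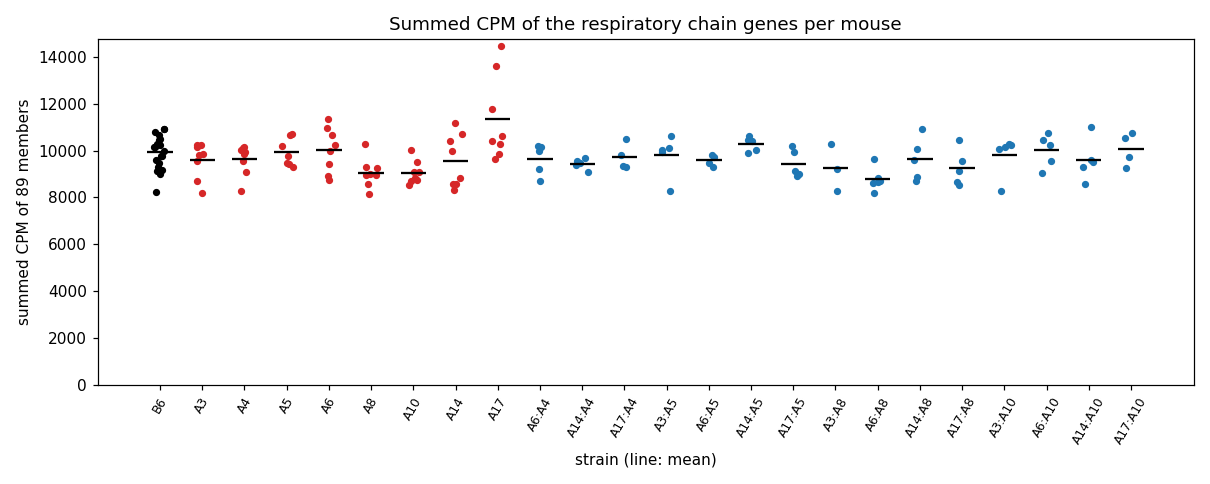
Summed CPM of the 89 members (vertical) in each mouse by strain (horizontal), with B6 in black, single CSSs in red, double CSSs in blue and lines at the means. A17 mice E124 (14455 CPM) and E125 (13612 CPM) lie above all others.

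In A17, mice E124 and E125 stood apart, with a summed level of 14455 and 13612 CPM over the 89 members against 9643 to 11771 in the other 6 A17 mice and 8249 to 10933 in B6. Their cytoplasmic ribosomal protein genes summed to 11778 and 12942 CPM. The striated muscle marker Myh4 was at 6.8 CPM in E124 and 0 in E125, and reached 23.5 in another A17 mouse. Without these 2 mice, no member was called in A17 by edgeR's quasi-likelihood test. The median of the 89 in A17 was 0.07, and 0.06 without them.

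Members on the substituted chromosome itself were called in 8 cases: Atp5f1 in A3, Cox6a1 in A5, Ndufb2 and Ndufa4 in A6, Ndufa13 in A8, Ndufa12 in A10, and Ndufv2 and Cox7a2l in A17. Chromosome 3 held 3 members, 4 held 6, 5 held 3, 6 held 5, 8 held 3, 10 held 5, 14 held 0 and 17 held 7. The share called among all genes on the substituted chromosome is not given here, so the 8 cases are not compared with it. Ndufa12 (chr10:94198720-94221443, GRCm38, plus strand), an accessory subunit of complex I, differed from the pattern above. It lay at 22.5 to 34.4 CPM in B6 (median 30.2) and at 32.3 to 39.7 in A10 (median 34.4), and its log2 fold change was 0.29 (SE 0.06, adjusted p 1.03e-04). Of the 8 A10 mice, 4 lay above all B6 mice.

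The 4 double CSSs that carry A/J chromosome 10 kept this level. Ndufa12 lay at 42.1, 37.1, 38.7, 36.6 and 29.8 CPM in A3:A10 and at 38.9, 30.7, 35.4, 47.0 and 40.4 in A6:A10. It lay at 33.8, 35.4, 31.7, 34.2 and 37.1 in A14:A10 and at 31.9, 41.1, 37.6 and 35.0 in A17:A10. Over the 27 mice of the 5 strains with A/J chromosome 10 the median was 35.4 CPM, and 17 lay above all B6 mice. Over the 127 mice without it the median was 29.6, and 14 lay above. Ndufa12 also rose in A17 (0.20, SE 0.06, adjusted p 0.0336), at 29.1 to 49.6 CPM, and the highest mouse of all was one of these. That call was lost without E124 and E125. The interaction of Ndufa12 was not called in any of the 15 crosses, and in the 4 crosses with chromosome 10 it was 0.03 (A3:A10), 0.01 (A6:A10), -0.01 (A14:A10) and -0.20 (A17:A10), with SE of 0.09 to 0.10.

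Atp5f1 (chr3:105942698-105960099, minus strand), which encodes the peripheral stalk subunit b, lay at 197 to 282 CPM in A3 against 183 to 273 in B6 and rose by 0.12 (SE 0.04, adjusted p 0.0134), a call lost without surrogate variables and with library size alone. Cox6a1 (chr5:115345642-115348981, minus strand) lay at 148.4 to 176.2 CPM in A5 against 119 to 171 in B6 and rose by 0.11 (SE 0.04, adjusted p 0.0336), a call that was lost without surrogate variables (adjusted p 0.381) and without separate adjustment of the substituted chromosome (0.123). Cox6a1 also rose in A4, A14 and A17, where it is not on the substituted chromosome. Cox7a2l (chr17:83501918-83517330, minus strand), whose product joins complexes III and IV, rose by 0.15 (SE 0.05, adjusted p 0.0149) in A17, with 3 of 8 mice above B6. Ndufb2 overlaps exons of another gene on its own strand, as do 4 other members.

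The double CSSs with A/J chromosome 8 held most of the interactions called. An interaction is the level of the double CSS beyond the sum of its 2 single effects, on the log2 scale. A14:A8 was positive in 28 members (18.2% of all genes) and negative in 37 (14.4%), with a median of -0.12 against 0.02 over all genes. A6:A8 was positive in 11 (13.5%) and negative in 39 (11.4%), with a median of -0.20. A17:A8 was positive in 11 (5%) and negative in 23 (3.77%), and A3:A8 in 10 (4.92%) and 10 (2.66%). The 4 crosses share the A8 mice and the B6 mice. Each interaction contains the A8 effect, and that of its other chromosome, with a minus sign. A sign opposite to that of a single effect is thus in part built in and is not read as a result. In A17:A8 the other effect holds mice E124 and E125, and a count without them is not given here.

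Atp5a1 lay at 981, 994, 1046, 861 and 843 CPM in the 5 A14:A8 mice, all within the B6 range, where A8 mice had reached at most 786. Its single effects were -0.36 and -0.43, the double CSS differed from B6 by 0.02, and the interaction was 0.81 (SE 0.09, adjusted p 1.23e-12). Ndufa4 lay at 229, 208, 262, 195.6 and 188.2 CPM in the same mice, with an interaction of -0.82 (SE 0.10, adjusted p 2.43e-10). Its single effects were 0.39 and 0.44, and the double CSS differed from B6 by 0.01. Interactions were positive for the core or F1 genes Ndufv1 (0.61), Uqcrc1 (0.60), Atp5b (0.59), Atp5d (0.59) and Ndufs1 (0.51) and for Sdha (0.57). They were negative for Sdhaf4 (-0.83), Cox6c (-0.81), Cox7a2 (-0.76), Atp5j2 (-0.74), Cox7b (-0.67) and Ndufs4 (-0.66). All 10 members over 1200 nt were positive in A14:A8, and 14 of the 20 up to 300 nt were negative. Of other nuclear protein-coding genes, 24.3% over 1200 nt were positive and 36.4% up to 300 nt were negative. Both single effects, which had the reverse order by length, enter with a minus sign, so that this order is in part built in.

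In A6:A8, Ndufa4 lay at 182 to 199 CPM (median 187.2, n = 6), near the low end of B6, with an interaction of -0.70 (SE 0.10, adjusted p 4.41e-08), and Ndufa1 at 35.8 to 43.0 (interaction -0.63). Cox6c reached at most 121.7 CPM (median 120.0), against a B6 median of 139.3. Atp5a1 lay at 804.1 to 1015 CPM with an interaction of 0.47 (SE 0.08, adjusted p 8.55e-06). In A17:A8, Sdhaf3 (-0.60), Cox6c (-0.55) and Ndufa4 (-0.53) had the largest negative values and Atp5a1 (0.39) the largest positive value among the members called. Cox6c lay at 116.5, 125.9, 121.3, 142.7 and 125.5 CPM there, from the lowest level of B6 (116.7) to within its range.

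In A3:A8 (n = 3), Atp5a1 lay at 791, 948 and 853 CPM and its interaction was 0.43 (SE 0.10, adjusted p 0.00227). Ndufa4 (-0.47) and Cox6c (-0.45) were negative. Leaving out 1 of the 3 mice left 5 to 18 members called in place of 20, with the lowest count without E689, and without the A17 mice E124 and E125 it was 34.

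**Figure D5:**
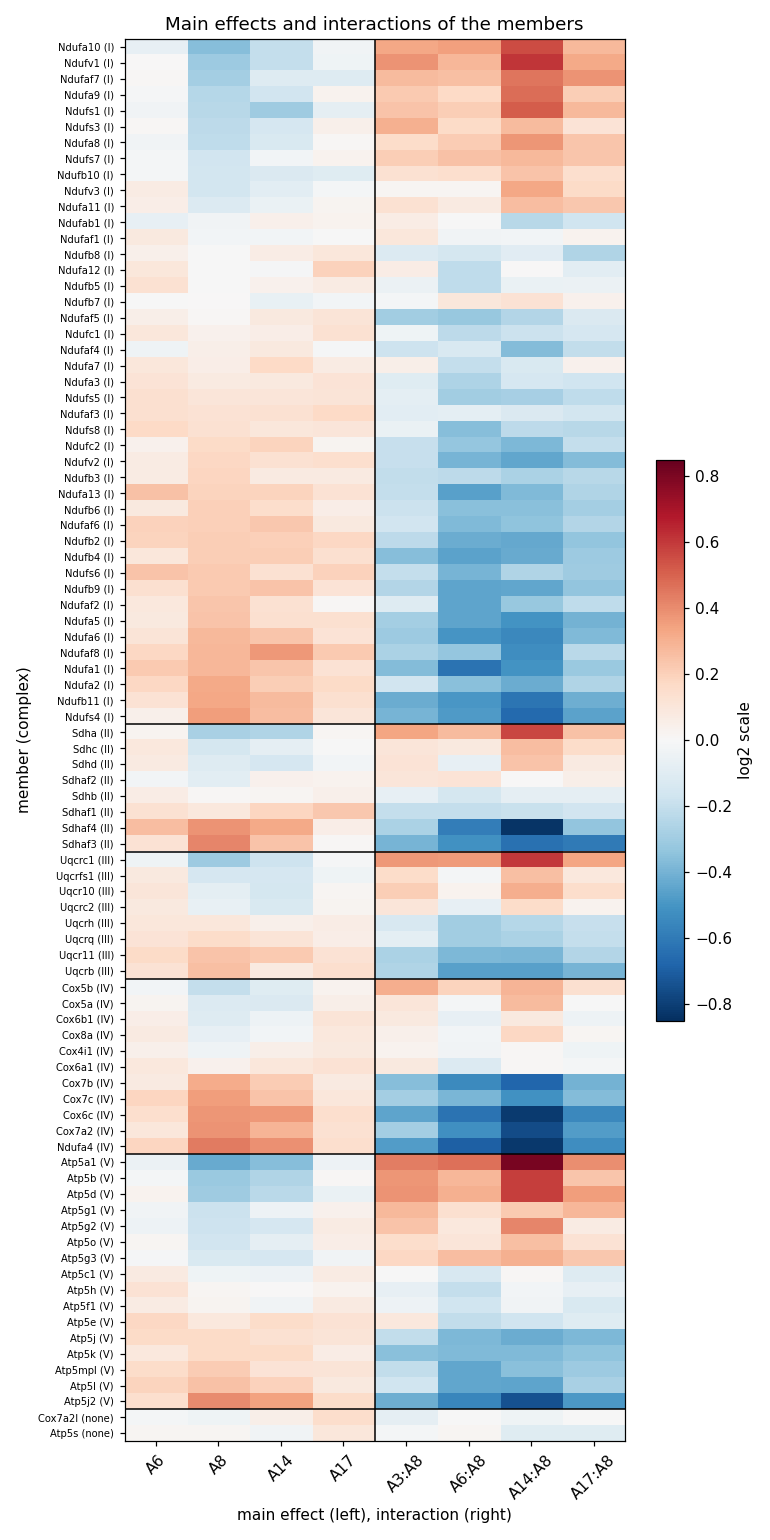
Log2 main effects (left of the line) and interactions (right) of the members, 1 of them left out, ordered by complex and within it by the A8 effect, from blue (negative) to red (positive). The A8 column enters each A8 cross with a minus sign, so that opposite colours there are in part built in.

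By complex, A14:A8 was positive in 12 and negative in 21 genes of complex I, 3 and 2 of complex II, 4 and 4 of complex III, 3 and 5 of complex IV, and 6 and 5 of complex V. The mitochondrially encoded subunits were negative in 5 of 11 in each of A14:A8, A6:A8 and A17:A8, with mt-Nd6 at -1.37 (SE 0.27) and mt-Co1 at -0.75 (SE 0.11) in A14:A8. Tricarboxylic acid cycle genes were positive in 11 of 14 in A14:A8, with Ogdh at 0.94 (SE 0.13), and in 8 of 14 in A6:A8. Hepatocyte markers summed to 103900 to 129700 CPM in A14:A8, and 6 of 8 had a positive interaction and none a negative one. These signs, too, contain the single effects with a minus sign and are in part built in. The part of the hepatocyte markers in the result was not tested.

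Other crosses with A14 held a few calls. In A14:A5, 2 members were positive (2.48%) and 9 negative (1.55%), led by Cox7a2 (-0.42) and Ndufa4 (-0.40), and 4 members were called with E176 left out. In A14:A4, 4 were negative (2.08%; 2.62% were positive): Ndufaf8 (-0.48), Ndufa4 (-0.38), Ndufs4 and Uqcr11. A refit without E733 called none, and scaling by library size alone turned the split to 4 positive and 0 negative. With surrogate variables kept, leaving out 1 mouse gave 3 calls without E733, 2 without E485, 5 without E732, 1 without E742 and 0 without E744. In A14:A10, 4 were positive (2.46%; 1.71% were negative), with Ndufs1 at 0.32 (SE 0.10, adjusted p 0.0351), and 1 member was called with E290, E437 or E548 left out. These crosses share the A14 mice and B6, and each interaction contains the A14 effect with a minus sign. A sign opposite to that of A14 is thus in part built in and is not read as a result. A17:A4 was negative in Ndufb11 (-0.32) and Ndufs6 (-0.32; 0.617%), and neither was called without E571 or without E679. This interaction contains the A17 effect, and so mice E124 and E125, with a minus sign. In the other 7 crosses no member was called by edgeR's quasi-likelihood test, and DESeq2 called 1, in A6:A4. Of all genes, edgeR called 0.542% in A6:A4, 0% in A3:A5, A6:A5 and A17:A5, 1.17% in A3:A10, 0.0527% in A6:A10 and 0.113% in A17:A10. By edgeR's test, 3 to 19 members per cross had an unadjusted p below 0.05. The share of all genes at that unadjusted threshold is not given here, so these counts are not read as a result.

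Interactions were fewer with 10 surrogate variables: 25 members in A14:A8, 10 in A6:A8, and none in A17:A8 and A3:A8. Scaling by library size alone moved the median of all genes to 0.11 in A14:A8 and turned the split to 31 positive and 20 negative there, 22 and 16 in A17:A8, 18 and 28 in A6:A8, and 19 and 2 in A3:A8. Without mice E124 and E125, the split was 15 positive and 47 negative in A14:A8.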

How the data were processed

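RNA sequencing of caudate liver lobe gave 1 library per mouse. The authors aligned reads with TopHat2 to the mouse reference, tried unaligned reads on a genome carrying A/J variants, used HTSeq for counting and filtered out duplicates. The deposited values are raw counts of each gene. Replicate numbers are accession order. Mice came from several breeding cages, so the spread includes cage.

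Here edgeR 4.0.16 (R 4.3.3, quasi-likelihood, TMM scaling) was fitted to all 13289 genes and all mice, with 8 substitutions, 15 interactions and 5 surrogate variables (sva 3.50.0). P-values were adjusted by Benjamini-Hochberg within each effect, for genes on the substituted chromosomes and others separately, at 0.05. CPM use TMM library sizes. Genes named by rule were fixed core subunit and isoform genes, the 2 largest called changes per substitution and per cross of A8 and for A14:A4 (1 for other crosses; average log2 CPM of at least 2), called members on a substituted chromosome and the 3 smallest p of each joint test; others were named after their values were seen. Names and positions came from GENCODE vM21, which matched 13242 genes. The members and lists were chosen with earlier results of these data known. The test was tested on simulated data. DESeq2 1.42.0 and other settings were alternatives. NRF1 and YY1 motif letters were shortened to 9 after a longer search. Some single-gene results are not reported here.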

Additional observations from a re-analysis of the deposited data

Results flagged for a closer look

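Of the groups of 4 to 10 mice tested for a mouse far from the others (Dixon's test), 17 (10.4%) held one. Chance gives about 1 in 20 for independent tests. These tests shared mice, and the sum of all members contains the sums of the complexes, so the shares are not compared. In A3:A10, E736 was lowest in the summed CPM of all members (8258, next 10048), complex I (2120), complex II (760), complex III (922), complex IV (1281) and complex V (3091). In A3:A5, E67 was lowest for all members (8252, next 9950) and complex I (2119). In A6:A8, E540 was highest for complex III (1082) and complex V (3785). Single sums apart were those of complex II in A17 (E124, 1141) and A6:A10 (E232, 790), complex IV in A17:A4 (E571, 1751) and complex V in A14:A5 (E176, 3682). Single genes were Cox5b in A10 (E677, 76.3 CPM), Ndufa1 in A6:A8 (E2, 43.0 CPM) and Sdhaf4 in A14:A8 (E710, 9.28 CPM).

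An effect of one substitution differed with the other substitution present, by the interaction term, for these members (log2 scale). Each term contains both single effects with a minus sign, so that a sign opposite to theirs is in part built in. In A14:A8 the values were -0.83 for Sdhaf4 and -0.82 for Ndufa4. In A6:A8 they were -0.70 for Ndufa4 and -0.63 for Ndufa1, in A17:A8 -0.60 for Sdhaf3 and -0.55 for Cox6c, and in A3:A8 -0.47 for Ndufa4 and -0.45 for Cox6c. In A14:A4 they were -0.48 for Ndufaf8 and -0.38 for Ndufa4, in A14:A5 -0.42 for Cox7a2, in A17:A4 -0.32 for Ndufb11 and in A14:A10 0.32 for Ndufs1. A refit without E733 called no member in A14:A4, and Ndufb11 was not called in A17:A4 without E571 or without E679. With 10 surrogate variables, no member was called in A17:A8 or A3:A8.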

How the results depend on the processing

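The number of members called in an effect, or of calls over several effects, depended most on the surrogate variables, and the cause was not tested. With none, it was 0 in A3, A4 and A5, 6 in A6, 11 in A10, 56 in A17 and 56 in A17:A8. With 10 it was 1 in A3, 2 in A4, 2 in A6, 22 in A8, 7 in A14, 1 in A17, 1 in A14:A4, 0 in A3:A8, 10 in A6:A8, 25 in A14:A8 and 0 in A17:A8, or 39 calls over all substitutions and 37 over all crosses (combinations of a member and an effect, from the counts of members with a main effect and members with an interaction). The reported fit gave 190 calls over all crosses (14.2% of 1335 combinations, against 5.98% over all genes). Over all substitutions it called 19.2% of 712 combinations of member and substitution, against 11.1% over all genes. With 10 surrogate variables, the joint tests called 41 members for strain and 19 for interaction. With 5 components within strains it was 5 in A3, 14 in A4, 27 in A6, 57 in A10, 73 in A17, 33 in A14:A4, 45 in A3:A8 and 60 in A17:A8, or 302 and 480 such calls in all, and 84 in the joint interaction test. Scaling by library size alone gave 0 in A3, 2 in A4, 9 in A6 and 8 in A10. A count of at least 15 in 75% of the mice gave 4 in A6, 8 in A10, 0 in A17 and 2 in A14:A4. Adjustment without separating the substituted chromosomes gave 0 in A5. Without E733 it was 4 in A4 and 0 in A14:A4. Without E124 and E125, an alternative chosen after seeing the data, it was 30 in A6, 0 in A17, 24 in A14:A4 and 34 in A3:A8. Leaving out each mouse of a double CSS gave 0 to 5 in A14:A4, 5 to 18 in A3:A8, 47 to 53 in A6:A8, 59 to 63 in A14:A8 and 25 to 35 in A17:A8. Among calls of named genes, 109 were lost and 45 kept with 10 surrogate variables, 37 were lost with library size alone and 1 with DESeq2, and no call of a named gene changed sign, while the splits under library size alone turned in A8, A14, A14:A4, A14:A8 and A17:A8, as given with those results. No paired analysis was possible because replicate numbers are accession order and pair no mice. Depth limits the assembly factor genes at a few CPM most.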
